A study of Arabidopsis thaliana with 12 samples.

Results

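A set of 10 genes of the phosphate starvation response were followed in Arabidopsis thaliana seedlings that carry or lack a working copy of SNAP33, a plasma-membrane SNARE protein of vesicle fusion. The members are named by locus and are 10 of the 32744 genes in the count tables: IPS1 (AT3G09922), AT4 (AT5G03545), SPX1 (AT5G20150), SPX3 (AT2G45130), PHT1;4 (AT2G38940), PAP17 (AT3G17790), PAP14 (AT2G46880), SQD1 (AT4G33030), SQD2 (AT5G01220) and MGD3 (AT2G11810). RNA of whole seedlings was sequenced in 12 libraries, 3 for each of wild type at 5 d, snap33 at 5 d, wild type at 12 d and snap33 at 12 d. The snap33 allele is a T-DNA insertion described as a knock-out. All seedlings grew without treatment on solid Murashige and Skoog medium of reduced strength under long days, so no group was starved of phosphate by design. The series describes its replicates as biological. Separate plates or seed batches are not named, and p-values therefore measure the spread between these libraries, part of which may be technical.

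Before the results, 3 facts of the libraries bear on all of them. SNAP33 (AT5G61210) had 95, 109 and 95 counts in wild type at 5 d and 119, 168 and 108 at 12 d, against 1, 3 and 8 in snap33 at 5 d and 16, 14 and 14 at 12 d, so the counts separate the groups as the titles do, although the genotype field of the wild-type libraries also carries knock-out wording. The planting and harvest dates give 5 to 7 days of growth for both 5 d groups and 12 to 14 days for wild type at 12 d. For snap33 at 12 d they give 32 to 34 days, so genotype and the dated growth time cannot be told apart at 12 d. These seedlings are dated to planting on 9 March and all others to 29 March. Every change with age in snap33 given below therefore also spans that longer dated growth and a separate planting. Gene counts ran from 4304441 to 5754570 per library, and replicate 3 of wild type at 12 d stood apart from its group, with the highest level in its group for each of the 10 genes. The protocol of snap33 12 d replicate 1 alone names a 3' read format, and its values lay with those of its 2 fellow replicates for these genes.

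When phosphate runs short, plants induce a set of genes through the transcription factor PHR1 and its relatives, which bind a short promoter element called P1BS. SPX proteins sense inositol pyrophosphates, which report cellular phosphate, and hold PHR1 back when phosphate is ample. The induced set raises uptake by PHT1 transporters, releases phosphate from organic compounds with secreted phosphatases, replaces membrane phospholipids with sulfolipid and galactolipid, and makes the RNAs IPS1 and AT4, which sequester the microRNA miR399 and so spare its target PHO2, a ubiquitin-conjugating enzyme that lowers phosphate transporters.

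The miR399 pairing that defines the role of IPS1 and AT4 can be read from the sequences. The mature miRNA is shown with its seed, bases 2 to 8, in capitals; in the target sites the capitals mark bases that pair with the miRNA by Watson-Crick rules. All sequences are from the RefSeq TAIR10.1 genome, written 5′ to 3′ in the direction of the transcript.
miR399b: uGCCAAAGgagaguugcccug
miR399a: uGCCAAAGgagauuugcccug
IPS1 site, chr3:3051224-3051247, plus strand: ttGGGCAACTtctaTCCTTTGGCA
AT4 site, chr5:895149-895172, plus strand: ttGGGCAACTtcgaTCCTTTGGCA
PHO2 site, chr2:14281884-14281904, minus strand: ttGGGCAAATCTCCTTTGGCA
PHO2 site, chr2:14281973-14281993, minus strand: tAGGGCAtATCTCCTTTGGCA
In IPS1 and in AT4, 18 of the 21 bases of miR399b pair, and an unpaired run opposite the middle of the miRNA interrupts the match. The 2 sites share every paired base and differ only inside that run. PHO2 (AT2G33770) holds 5 sites in its 5′ UTR with no such interruption, each pairing 19 of the 21 bases of its best-matching miR399 form. RefSeq lists IPS1 and AT4 as coding for short peptides and places both sites in those reading frames, while they are best known as non-coding RNAs.

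IPS1 was close to absent at 5 d and appeared in wild type at 12 d, while snap33 at 12 d had almost none. Its level, as CPM (counts scaled to a common library size after TMM scaling), was 28.2, 13.8 and 41.4 in wild type at 12 d and 0.736, 0.366 and 1.36 in snap33 at 12 d. The groups did not overlap. IPS1 passed the low-count filter only through wild type at 12 d, where it was high. A gap to that group was therefore built in, and the tests of IPS1 against it are given as a description. The difference in level was 33-fold (log2 fold change -5.05, SE 0.46, edgeR adjusted p = 8.88e-08, n = 3 libraries per group), and the ratio of counts, scaled to library size, was 33.3 with a 95% interval of 19.3 to 63, which like all such intervals here covers counting error only. Within the 3 harvest days the log2 ratio was -4.65, -4.2 and -4.57. At 5 d there was 1 count in the 3 wild-type libraries and 0 in snap33, too few for a fold change between genotypes. With age in wild type its 433 counts against 1 gave a ratio of 379 (95% interval 67.6 to 15000), called higher (edgeR adjusted p = 1.02e-07). In snap33 the 13 counts at 12 d against 0 at 5 d were at least 3.48-fold higher (edgeR adjusted p = 0.0345), a call lost when any snap33 5 d library or snap33 12 d replicate 1 or 3 was left out (edgeR adjusted p = 0.0521 to 0.0906). IPS1 lies on chromosome 3 at 3050989 to 3051530 on the plus strand.

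AT4, the relative of IPS1 with the same miR399 pairing, moved in opposite directions at the 2 ages. At 5 d its level was 63.4, 69.4 and 51.1 CPM in wild type and 113.5, 140.3 and 99.2 CPM in snap33. Every snap33 library was above every wild-type library, a rise of 1.92-fold (log2 fold change 0.94, SE 0.19, edgeR adjusted p = 0.00296). In the older seedlings the level was 216.7, 184.5 and 343.5 CPM in wild type and 47.5, 44.3 and 56.2 CPM in snap33. The order was reversed with no overlap, a fall of 5.03-fold (log2 fold change -2.33, SE 0.2, edgeR adjusted p = 1e-08). From 5 d to 12 d the gene rose 4.04-fold in wild type (edgeR adjusted p = 1.79e-07) and fell 2.39-fold in snap33 (edgeR adjusted p = 2.07e-05). The genotype effect differed between ages by a log2 value of -3.27 (SE 0.27, edgeR adjusted p = 1.14e-07). AT4 lies on chromosome 5 at 894582 to 895517, plus strand.

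**Figure D1:**
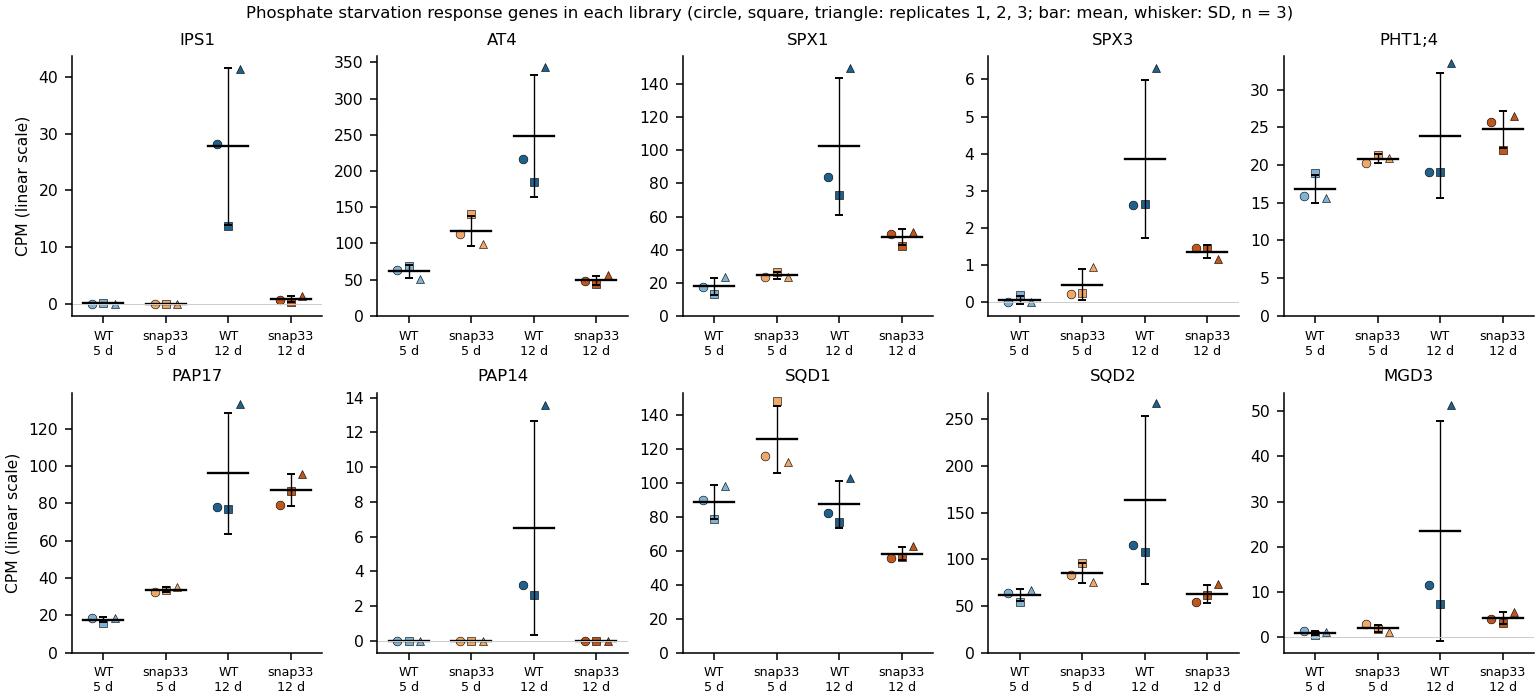
CPM of each of the 10 genes (linear y axis) in the 12 libraries, grouped by genotype and age, with circle, square and triangle for replicates 1, 2 and 3, a bar for the mean and a whisker for the SD (n = 3). IPS1 and PAP14 are near 0 outside wild type at 12 d, AT4 is higher in snap33 at 5 d and lower at 12 d, and replicate 3 of wild type at 12 d is the highest library in every panel except SQD1.

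Root, leaf and senescence markers moved with genotype at 12 d, beside these genes. Of 10 root markers, 9 fell in snap33 at 12 d, against 20.5% of all genes tested. Their median log2 fold change was -1.04, and that of the 10 genes of the phosphate response was -1.42. The latter includes IPS1, SPX3 and PAP14, which passed the low-count filter only through wild type at 12 d. The root markers summed to 340.9 to 588.5 CPM in wild type and 225.3 to 241.9 CPM in snap33. At 5 d, 4 of the 10 root markers fell, against 4.77% of all genes, with a median log2 fold change of -0.31. Their sums were 263.9 to 303.4 CPM in wild type and 223.3 to 267.5 CPM in snap33. All 6 leaf markers fell at 12 d (median -0.51), against 20.5% of all genes, from sums of 12580.3 to 14239.9 CPM to 8734 to 9804.5 CPM. Senescence markers had sums of 847.9 to 900.9 CPM in snap33 at 12 d against 355.2 to 556.2 CPM in wild type, and 163.1 to 240.5 CPM against 42.4 to 65.3 CPM at 5 d. Of the 4 tested, 3 were higher at 12 d (21.1% of all genes) and 2 at 5 d (8.22% of all genes). The larger sum at 12 d lay mostly in SAG13, with means of 105.2 CPM in wild type and 471.7 CPM in snap33. SEN1 went the other way there, with 209.7 and 180.9 CPM. At 5 d the larger sum lay mostly in SEN1 (15.23 and 136.7 CPM), while SAG13 had 0.8295 and 0.9912 CPM. SAG12, a defining marker, had 0 counts throughout. In bulk RNA, fewer cells of a type and less RNA per cell cannot be told apart. The part of these markers in the results was not tested.

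**Figure D2:**
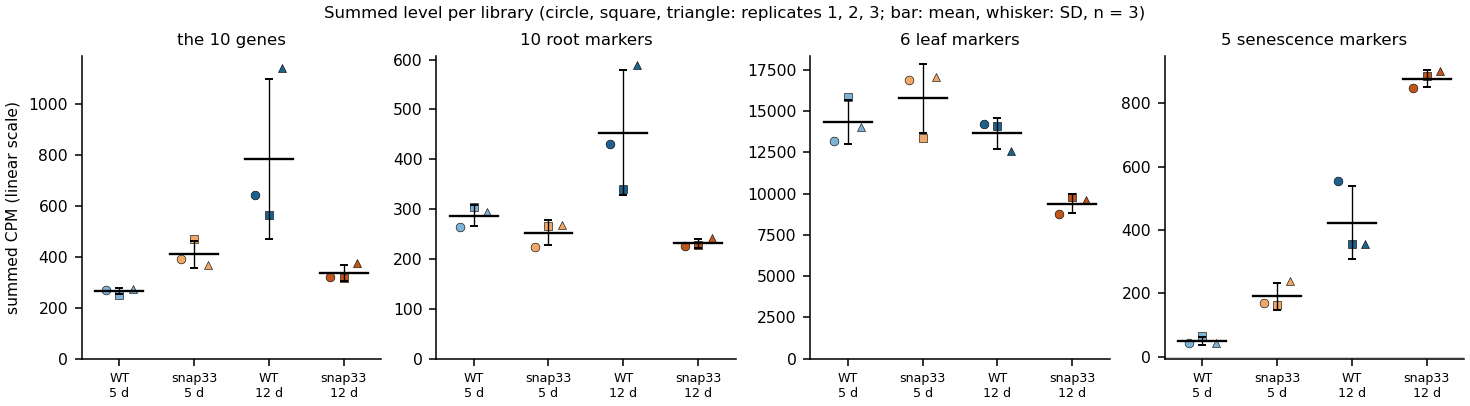
Summed CPM (linear y axis) of the 10 phosphate response genes and of the root, leaf and senescence markers per library, with symbols, bars and whiskers for replicates, mean and SD (n = 3). The root markers peak in wild type at 12 d replicate 3 (588.5 CPM), where the 10 genes sum to 1143.7 CPM.

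SPX1 and SPX3 fell in snap33 at 12 d, while SPX2 and SPX4 of the wider pathway list were not called. SPX2 stood at a log2 value of 0.32 (edgeR adjusted p = 0.141) and SPX4 at -0.6 (edgeR adjusted p = 0.255). SPX1, a nuclear repressor of PHR1, had 17.2, 13.3 and 23.4 CPM in wild type at 5 d, 23.3, 26.6 and 23.4 CPM in snap33 at 5 d, 83.8, 73.2 and 150 CPM in wild type at 12 d and 49.7, 42.1 and 50.8 CPM in snap33 at 12 d. The 12 d groups did not overlap, and the fall was 2.15-fold (log2 fold change -1.1, SE 0.21, edgeR adjusted p = 0.000258). The 5 d groups overlapped at their edge and the change of 0.45 (SE 0.25) did not pass the test (edgeR adjusted p = 0.273). In wild type SPX1 rose 5.7-fold with age (edgeR adjusted p = 1.1e-07) and in snap33 1.94-fold (edgeR adjusted p = 0.00158). SPX3, the second SPX sensor, is expressed at a far lower level: 0, 0.196 and 0 CPM in wild type and 0.22, 0.24 and 0.954 CPM in snap33 at 5 d, and 2.62, 2.65 and 6.31 CPM in wild type and 1.47, 1.46 and 1.16 CPM in snap33 at 12 d. It fell 2.76-fold at 12 d (edgeR adjusted p = 0.00999), a call lost without wild type 12 d replicate 3 (log2 -0.93, edgeR adjusted p = 0.0818) and in DESeq2 (adjusted p = 0.0549). With age in wild type its 61 counts against 1 gave a ratio of 53.4 (95% interval 9.23 to 2140), called higher (edgeR adjusted p = 2.36e-05). Like IPS1, SPX3 passed the low-count filter only through wild type at 12 d, so its tests against that group are a description.

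PHT1;4, a high-affinity phosphate uptake transporter of the root, was nearly flat. Its level was 15.9, 19 and 15.6 CPM in wild type and 20.2, 21.4 and 21 CPM in snap33 at 5 d, and 19.1, 19.1 and 33.5 CPM in wild type and 25.8, 22 and 26.6 CPM in snap33 at 12 d. The 12 d groups overlapped through wild type replicate 3. Neither age gave a called genotype change (5 d: log2 0.3, SE 0.2, edgeR adjusted p = 0.357, and 12 d: 0.06, SE 0.18, edgeR adjusted p = 0.84), but without that replicate the 12 d value was 0.37 and called higher (edgeR adjusted p = 0.0457). The rise with age in wild type (log2 0.5, edgeR adjusted p = 0.0461) lost its call in 13 of 19 alternatives. It was 0.47 (edgeR adjusted p = 0.0583) with replicate number as a block and 0.18 (edgeR adjusted p = 0.4) without wild type 12 d replicate 3. Reads of near-identical PHT1 copies may be split or lost in counting: PHT1;2 and PHT1;3 had 0 counts in every library.

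The 2 purple acid phosphatases behaved differently. PAP17, which releases phosphate from organic esters, was 18.3, 16.1 and 18.8 CPM in wild type at 5 d and 32.6, 33.4 and 35 CPM in snap33, without overlap, and rose 1.9-fold (log2 0.93, SE 0.2, edgeR adjusted p = 0.0038). By 12 d the levels were 77.9, 76.8 and 133 CPM in wild type and 79.1, 86.4 and 96 CPM in snap33, a change of -0.14 (SE 0.16) that did not pass the test (edgeR adjusted p = 0.522), and 0.17 without wild type 12 d replicate 3. PAP17 rose with age in both genotypes, 5.42-fold in wild type (edgeR adjusted p = 1.38e-08) and 2.59-fold in snap33 (edgeR adjusted p = 1.87e-06). It overlaps the opposite-strand gene AT3G17800 by 122 bases, and how strand was used in counting is not given in the sources used here. PAP14 was at 0 in 9 libraries and at 3.22, 2.65 and 13.6 CPM (16, 16 and 69 counts) in wild type at 12 d. In snap33 at 12 d it was therefore at least 33.6-fold lower, taking 3 counts over the group as the floor (edgeR adjusted p = 0.000292), although DESeq2 gave an adjusted p of 0.179. Against wild type at 5 d, wild type at 12 d was at least 29.5-fold higher (edgeR adjusted p = 0.000477, DESeq2 adjusted p = 0.188). PAP14 also passed the low-count filter only through wild type at 12 d, so its tests against that group are a description.

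The lipid-remodelling genes fell together at 12 d, by amounts that differed between them. SQD1 makes the sulfolipid headgroup donor and SQD2 joins it to the lipid backbone. SQD1 had 89.8, 78.4 and 98 CPM in wild type and 116, 148 and 112.5 CPM in snap33 at 5 d, and 82.2, 77 and 102.9 CPM in wild type and 55.6, 56.4 and 63 CPM in snap33 at 12 d. Neither pair of groups overlapped, and the gene rose 1.42-fold at 5 d (edgeR adjusted p = 0.0181) and fell 1.5-fold at 12 d (edgeR adjusted p = 0.00201). The 5 d call was lost without wild type 5 d replicate 1 (edgeR adjusted p = 0.0516) or 2 (0.0961), or without snap33 5 d replicate 2 (0.0924). In SQD2, whose genotype effect at 5 d was 0.46 (SE 0.25, edgeR adjusted p = 0.249), the 12 d levels were 115.4, 107.5 and 267.7 CPM in wild type and 54.7, 61.3 and 73.3 CPM in snap33. It fell 2.59-fold (log2 -1.37, SE 0.24, edgeR adjusted p = 0.000143). MGD3, a galactolipid synthase induced when phospholipid is withdrawn, had 1.34, 0.588 and 1.12 CPM in wild type and 2.86, 1.92 and 1.19 CPM in snap33 at 5 d, and 11.7, 7.47 and 51.4 CPM in wild type and 4.05, 3.11 and 5.62 CPM in snap33 at 12 d. MGD3 fell 5.46-fold (log2 -2.45, SE 0.52, edgeR adjusted p = 0.000882), and without wild type 12 d replicate 3 the value was -1.15 (edgeR adjusted p = 0.00278). With age in wild type SQD2 rose 2.65-fold (edgeR adjusted p = 0.000148) and MGD3 22.8-fold (log2 4.51, edgeR adjusted p = 4.36e-05; 3.21 without wild type 12 d replicate 3), while SQD1 stood at a log2 value of -0.02 (edgeR adjusted p = 0.912). SQD1 fell 2.15-fold with age in snap33 (edgeR adjusted p = 1.32e-06).

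The falls were smaller without replicate 3 of wild type at 12 d. The log2 genotype effect at 12 d was -2.02 for AT4, -0.72 for SPX1, -0.45 for SQD1, -0.82 for SQD2 and -1.15 for MGD3. Each was still called by edgeR (adjusted p of 0.00942 or lower). SPX3, at -0.93, lost its call (edgeR adjusted p = 0.0818), and IPS1 stood at -4.63. IPS1 and SPX3 passed the low-count filter only through wild type at 12 d, so their values are a description.

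**Figure D3:**
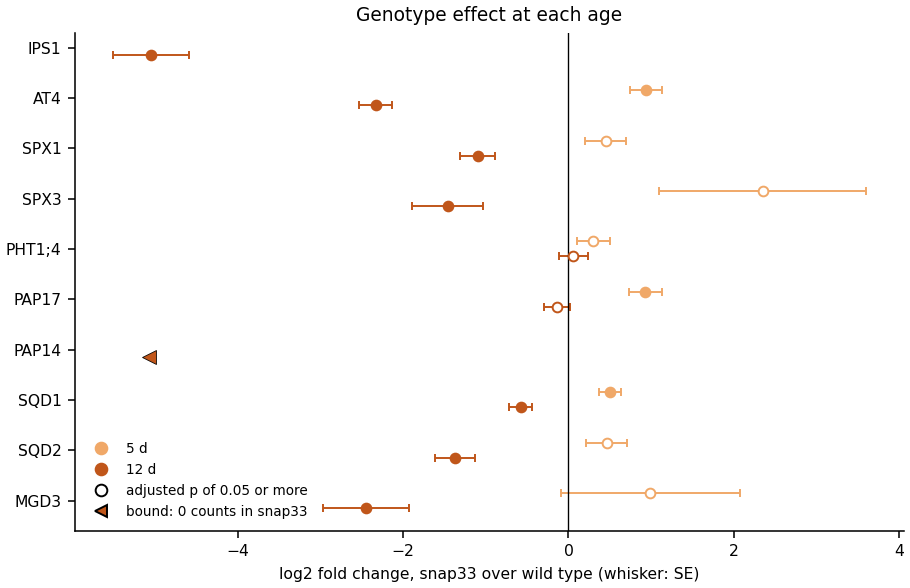
Log2 fold change of snap33 over wild type (x axis; whisker, SE) for each gene at 5 d (light) and 12 d (dark), with open symbols for adjusted p of 0.05 or more and an arrowhead for the bound of PAP14, which had 0 counts in snap33. The largest 12 d falls are those of PAP14 (at least 33.6-fold) and IPS1 (log2 -5.05), and PHT1;4 stands at 0.06; IPS1 and PAP14 have no 5 d value because they had at most 1 count.

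Counted over the 10 genes, 3 rose and 0 fell in snap33 at 5 d, where 8.22% of the 18830 genes tested rose and 4.77% fell. The median log2 fold change of the 10 was 0.48 against 0 over all genes. It includes the fitted values of IPS1 (-1.93) and PAP14 (0), which had too few counts at 5 d for a fold change. It also includes that of SPX3 (2.35), which rests on 6 counts in snap33 against 1 in wild type. In 6 of the 10, all snap33 libraries were above all wild-type libraries at 5 d, as were those of 16.7% of genes. SPX3 is among the 6 by 0.22 against 0.196 CPM, each from 1 count. At 12 d 0 rose and 8 fell, where 21.1% rose and 20.5% fell. Without wild type 12 d replicate 3, 7 fell and 1, PHT1;4, rose. In the full set, the 8 did not overlap, with all snap33 libraries lower, as in 25.2% of genes. Upper-quartile scaling moved the share of higher genes among all called at 12 d from 50.7% to 38.2%, and with age in snap33 from 51.4% to 40.9%, with 8 of the 10 still lower at 12 d. The genotype effect was lower at 12 d than at 5 d in 7, against 12.8% of genes lower and 11% higher. The SPX3 difference (log2 -3.81) was not called with harvest day as a block (-3.76, edgeR adjusted p = 0.0553), and was lost without wild type 5 d replicate 1 or 3, snap33 5 d replicate 3 or any snap33 12 d library (edgeR adjusted p = 0.0587 to 0.262). The MGD3 difference (-3.44) was lost without any single 5 d library or snap33 12 d replicate 1 or 2 (edgeR adjusted p = 0.0549 to 0.168), and was -2.15 without wild type 12 d replicate 3. With age in wild type 9 rose and 0 fell, against 21.5% and 19.2%, and 9 did not overlap, against 25.3%. In snap33 3 rose (IPS1, SPX1, PAP17) and 2 fell (AT4, SQD1), against 28.2% and 26.6%. IPS1, SPX3 and PAP14 passed the low-count filter only through wild type at 12 d, where they were high. These 3 therefore had to differ there. They are among the 8 lower at 12 d, the 9 higher with age in wild type and both matching counts without overlap. The other falls at 12 d were those of AT4, SPX1, SQD1, SQD2 and MGD3. The counts are given as a description, and the shares of all genes are no test of them.

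Per kilobase of exon, AT4 was the most abundant of the 10 in wild type at 12 d (265.2 ± 89.9 CPM per kb, SD, n = 3), followed by SPX1 (84.83 ± 34.5), SQD2 (71.87 ± 39.7), PAP17 (57.94 ± 19.5), IPS1 (51.25 ± 25.5) and SQD1 (45.75 ± 7.18), and neighbours in this order after AT4 differed by less than their SDs. MGD3 (12.22 ± 12.6) and PHT1;4 (11.96 ± 4.16) came next, then SPX3 (4.214 ± 2.31) and PAP14 (3.913 ± 3.71). In snap33 at 12 d the order was led by AT4 (52.7 ± 6.59) and PAP17 (52.57 ± 5.08), and IPS1 stood at 1.512 ± 0.924.

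The P1BS element, spelled GNATATNC and its own reverse complement, was looked for on the genome upstream of the annotated start. Within 250 bases it was present in 3 of the 10 genes (30%; AT4, SPX3, PAP14) and in 5.46% of 27443 protein-coding genes; within 1000 bases in 6 (60%; also IPS1, SPX1 and SQD2) and in 20.3%. Among 67 other listed pathway genes the shares were 31.3% and 53.7%. The windows of the 3 genes with a match within 250 bases are shown, and that of IPS1, which holds a pair of matches farther upstream, with each match in capitals.
IPS1, chr3:3050389-3050488, plus strand, 100 bases from 600 before the start: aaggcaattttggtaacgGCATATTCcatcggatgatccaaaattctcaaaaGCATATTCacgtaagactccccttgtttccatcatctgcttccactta
AT4, chr5:894332-894581, plus strand, 250 bases: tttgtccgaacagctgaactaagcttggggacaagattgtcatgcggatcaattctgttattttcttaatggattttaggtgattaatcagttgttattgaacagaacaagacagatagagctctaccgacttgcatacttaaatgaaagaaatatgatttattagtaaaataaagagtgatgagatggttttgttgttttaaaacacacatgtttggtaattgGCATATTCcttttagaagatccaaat
SPX3, chr2:18606160-18606409, plus strand, 250 bases: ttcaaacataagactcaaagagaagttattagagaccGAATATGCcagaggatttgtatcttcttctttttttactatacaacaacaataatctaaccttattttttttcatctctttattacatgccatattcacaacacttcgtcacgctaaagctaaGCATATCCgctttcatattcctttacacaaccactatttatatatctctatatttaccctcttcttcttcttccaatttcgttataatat
PAP14, chr2:19266457-19266663, minus strand, 207 bases: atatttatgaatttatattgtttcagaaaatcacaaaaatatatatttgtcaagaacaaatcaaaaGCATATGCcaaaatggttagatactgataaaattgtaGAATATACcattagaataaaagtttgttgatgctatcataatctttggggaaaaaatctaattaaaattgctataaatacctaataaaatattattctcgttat
A match is a description of these letters only. PHT1;4, PAP17, SQD1 and MGD3 held no match within 1000 bases.

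The wider phosphate pathway was read from a list of 74 genes, of which 53 passed the filter. At 5 d 4 rose in snap33 (7.55% of those tested, near the 8.22% of all genes) and 0 fell (4.77% of all genes). At 12 d 10 rose (18.9%, near the 21.1% of all genes) and 16 fell (30.2%, against 20.5%). With age in wild type 31 rose (58.5%, against 21.5%) and 4 fell (7.55%, against 19.2%). With age in snap33 27 rose (50.9%, against 28.2%) and 10 fell (18.9%, against 26.6%). The genotype effect differed between ages in 13, with 11 lower at 12 d (20.8%, against 12.8%) and 2 higher (3.77%, against 11%). Among regulators, PHR1 itself was not called at either age (log2 -0.43 at 5 d and -0.06 at 12 d, edgeR adjusted p = 0.216 and 0.83). PHO2, the miR399 target, was 102, 87.43 and 93.1 CPM in wild type and 119.7, 142.5 and 137.1 CPM in snap33 at 5 d, and 50.34, 58.56 and 79.82 CPM in wild type and 97.92, 105.2 and 100.4 CPM in snap33 at 12 d. PHO2 was higher in snap33 at both ages (log2 0.5, edgeR adjusted p = 0.0201; 0.69, edgeR adjusted p = 0.000515) and fell with age in wild type (-0.58, edgeR adjusted p = 0.00247) and snap33 (-0.39, edgeR adjusted p = 0.0187). The 5 d call was lost without any one of 4 single 5 d libraries. WRKY75, a transcription factor of phosphate uptake genes, rose 12.4-fold at 12 d (edgeR adjusted p = 2.17e-08), from 2.62, 1.82 and 9.26 CPM to 55.77, 53.26 and 57.18 CPM (log2 3.63, and 4.65 without wild type 12 d replicate 3). MYB62 rose 6.28-fold (edgeR adjusted p = 7.46e-06), having passed the low-count filter only through snap33 at 12 d, where it is high, and WRKY6, a repressor of PHO1, 2.34-fold (edgeR adjusted p = 2.54e-06). ZAT6 (log2 0.77) and LPR2 (0.68) rose at 5 d (edgeR adjusted p = 0.0151 and 0.0216), and both calls were lost without single 5 d libraries.

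Among the other transporters, PHT1;1, a main root uptake transporter, fell 2.2-fold at 12 d (edgeR adjusted p = 5.98e-05), PHT2;1 of the chloroplast 1.67-fold (edgeR adjusted p = 2.74e-05) and PHO1, which loads phosphate into the xylem, 1.41-fold (edgeR adjusted p = 0.00615). PHT1;5, which moves phosphate between organs, rose 3.38-fold (log2 1.76, edgeR adjusted p = 0.00052; 2.41 without wild type 12 d replicate 3), and it too passed the filter only through snap33 at 12 d. PHT5;1 of the vacuole was called higher at 12 d (log2 0.4, edgeR adjusted p = 0.0443), a call lost in 11 of 19 alternatives. Among these were harvest day as a block (0.41, edgeR adjusted p = 0.0806), upper-quartile scaling (0.28, edgeR adjusted p = 0.135) and DESeq2 (0.42, adjusted p = 0.0504).

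Among the phosphatases, PECP1, which acts on phosphocholine and phosphoethanolamine, fell 8.03-fold at 12 d (edgeR adjusted p = 9.94e-07), from 30.01, 23.72 and 67.6 CPM to 2.94, 5.31 and 6.78 CPM (log2 -3.01, and -2.42 without wild type 12 d replicate 3). PPsPase1, a pyrophosphate-specific phosphatase, had the pattern of PAP17: it rose 3.99-fold at 5 d (edgeR adjusted p = 0.000616), from 2.9, 2.55 and 2.9 CPM to 11.22, 10.32 and 11.92 CPM, and at 12 d stood at -0.05 (edgeR adjusted p = 0.877). The ribonuclease RNS1 (-0.8) and PAP22 (-0.94) were called lower at 12 d (edgeR adjusted p = 0.0219 and 0.0233), but PAP22 was not with harvest day as a block (-0.93, edgeR adjusted p = 0.0583), and neither was called without wild type 12 d replicate 3. PAP22 passed the filter only through wild type at 12 d, where it is high. HRS1, a regulator, was called lower as well (-0.59, edgeR adjusted p = 0.0311), with the same loss.

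Among lipid genes GDPD1, a glycerophosphodiester phosphodiesterase, fell 2.11-fold at 12 d (edgeR adjusted p = 0.000168), MGD2, the partner of MGD3, 3.35-fold (log2 -1.74, edgeR adjusted p = 0.00319; -0.88 without wild type 12 d replicate 3) and the housekeeping MGD1 1.53-fold (edgeR adjusted p = 0.000504). GDPD5 (1.99-fold), PAH2 (1.76-fold) and PLDZ1 (1.55-fold) rose (edgeR adjusted p = 0.00454, 0.00973 and 0.00185). GDPD1 shares 681 bases with an opposite-strand gene, so its reads are uncertain.

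**Figure D4:**
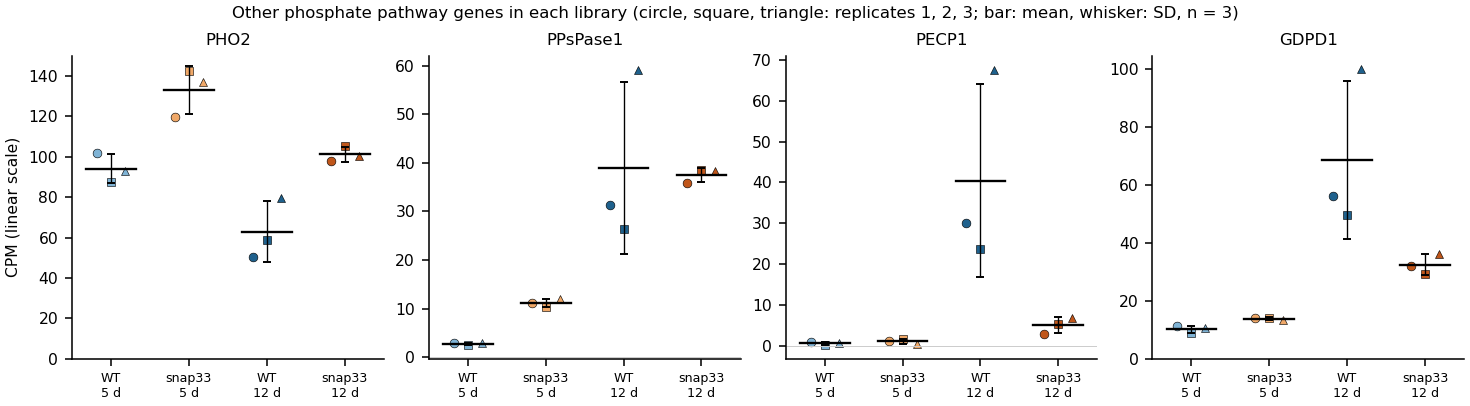
CPM (linear y axis) of PHO2, PPsPase1, PECP1 and GDPD1 in the 12 libraries, with symbols for replicates, bars for means and whiskers for SDs (n = 3). PPsPase1 is higher in snap33 at 5 d and level at 12 d, PECP1 and GDPD1 are lower in snap33 at 12 d, and PHO2 is higher in snap33 at both ages.

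**Figure D5:**
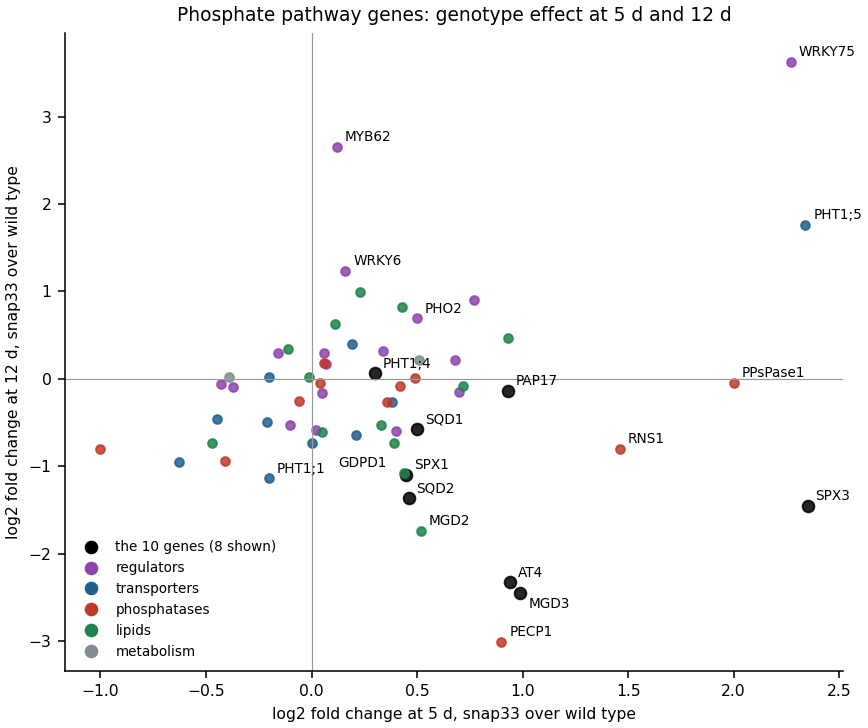
Log2 fold change of snap33 over wild type at 5 d (x axis) and at 12 d (y axis) for the tested pathway genes, coloured by role, with 8 of the 10 phosphate response genes in black (IPS1 and PAP14 have no 5 d value). AT4 (0.94 and -2.33) and MGD3 (0.99 and -2.45) lie to the lower right, with PECP1 (0.9 and -3.01) close to them. The 5 d values of MGD3 (14 counts in wild type, 26 in snap33) and PECP1 (8 and 14 counts) were not called.

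The genes whose levels over the 12 libraries were most like SPX1 were GDPD1 (Pearson r = 0.988), AT4G38810 (0.981), AT1G66330 (0.971), PECP1 (0.969) and MLP328 (0.961), by the correlation of log2 CPM. For PAP17 they were PPsPase1 (0.989), AT5G44005 (0.981), AT1G24148 (0.98), AT2G33830 (0.98) and AT2G37750 (0.979). Of 18829 genes compared, 119 had an r above 0.9 with SPX1 and 539 with PAP17. The 12 libraries share 4 groups, so these r values mostly describe the group pattern.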

How the data were processed

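The deposited values are counts of reads per gene, one table per library, with no normalization by the authors. Per the submitters' processing notes, reads were aligned with STAR (version not given) to TAIR10, and the deposited tables end in the closing lines of htseq-count. The counting strand setting is not given in the sources used here. Between 9.26% and 12.15% of counts lay in the closing lines and were left out.

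Groups came from the sample titles. The 18830 genes that passed filterByExpr were scaled by TMM and tested with edgeR 4.0.16 (R 4.3.3, quasi-likelihood, one fit of 4 group means, Benjamini-Hochberg over all genes tested, call at adjusted p under 0.05). DESeq2 1.42.0, other scalings, no filter, harvest day as a block and leaving out each library were alternatives. For changes with age the block was the replicate number, as harvest days differ between the ages. A fold against a group at 0 used a floor of 3 counts over the group. The statistical script was tested on simulated data. No 2 replicates agreed within sampling noise (chi-square per degree of freedom 1.64 to 10.6).

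The labels give same-numbered libraries of one age a shared harvest day, which pairs them; the correlation of their deviations from the group means was -0.25 to 0. The members and lists were chosen with earlier results of these data known. Named genes are SNAP33, the 10 members and, per role group, the called pathway genes with the smallest p, plus the 5 genes most correlated with SPX1 and with PAP17. PHR1, SPX2 and SPX4, and DGD1, G3Pp1 and further pathway genes whose effect differed between ages, were added after their values were seen. Sequences and gene models are from RefSeq TAIR10.1.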

Additional observations from a re-analysis of the deposited data

Results flagged for a closer look

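The genotype effect differed between 5 d and 12 d by the interaction test of edgeR in 7 of the 10 genes. All 7 were lower at 12 d, against 12.8% of all genes lower and 11% higher. The difference in log2 fold change, 12 d minus 5 d, was -3.27 for AT4, -1.55 for SPX1, -3.81 for SPX3, -1.07 for PAP17, -1.08 for SQD1, -1.83 for SQD2 and -3.44 for MGD3. Of 18 alternatives, 7 lost the SPX3 call and 8 the MGD3 call. SPX3 passed the low-count filter only through wild type at 12 d.

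The same test called 13 of the 53 pathway genes tested, 11 lower at 12 d (20.8%, against 12.8% of all genes) and 2 higher (3.77%, against 11%). The effect was lower at 12 d for PECP1 (-3.9), RNS1 (-2.26), MGD2 (-2.26), PPsPase1 (-2.04), GDPD1 (-1.52), UGP3 (-1.13), PHT1;1 (-0.94), DGD1 (-0.86), PHT2;1 (-0.74), MGD1 (-0.66) and G3Pp1 (-0.65), and higher for WRKY6 (1.06) and MYB62 (2.53). MYB62 passed the low-count filter only through snap33 at 12 d. The MYB62 call was lost without wild type 5 d replicate 1 (2.22, edgeR adjusted p = 0.0837), and that of PECP1 without snap33 5 d replicate 2 (-3.48, edgeR adjusted p = 0.0976). The MGD2 call was lost without wild type 5 d replicate 3, snap33 5 d replicate 1 or snap33 12 d replicate 1 or 2 (edgeR adjusted p = 0.0559 to 0.115). The G3Pp1 call was lost without wild type 5 d replicate 2, snap33 5 d replicate 1 or snap33 12 d replicate 1 (edgeR adjusted p = 0.0685 to 0.0757). UGP3 overlaps opposite-strand genes by 56 and 288 bases. SNAP33 was less reduced at 12 d than at 5 d (1.33, edgeR adjusted p = 0.0469). Growth time by the dates cannot be told apart from genotype at 12 d.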

How the results depend on the processing

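Of 860 values of the 10 genes recomputed under the alternatives, 802 kept their direction and side of the threshold, 40 lost the call, 10 gained it and 8 changed sign; of 652 values of the named pathway genes, 601 kept both and 51 lost the call. The number of the 10 genes called was 6 to 8 at 12 d, 2 to 4 at 5 d, 5 to 7 in the difference and 7 to 9 with age in wild type; with age in snap33 it was 5, and 4 to 8 over the alternatives (6 with no low-count filter and with only the groups compared, 4 to 8 with single libraries left out, 8 without wild type 12 d replicate 3). For the pathway list, 4 genes were called at 5 d, 7 with no low-count filter and 1 to 10 with single libraries left out. Over all genes, 2445 were called at 5 d and 1468 to 3223 with single libraries left out. The cause of these changes was not tested.

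The sign changed for uncalled values only. PHT1;4 at 12 d was -0.06 with upper-quartile scaling, -0.06 without wild type 12 d replicate 1 and, with single libraries left out, from -0.09 to 0.37 (0.37, called higher, without replicate 3). Its difference between ages ran from -0.4 to 0.07, the latter without replicate 3. PAP17 at 12 d ran from -0.28 to 0.17, the latter without wild type 12 d replicate 3. SQD1 with age in wild type was 0.05 without wild type 5 d replicate 3, 0 without 12 d replicate 1 and 0.06 without replicate 2, within -0.16 to 0.06 over all single libraries left out. With the block (harvest day, or replicate number for changes with age), the SPX3 difference (-3.76), PHT1;4 with age (0.47), PHT5;1 (0.41) and PAP22 (-0.93) lost their calls. No other call of these genes changed. Upper-quartile scaling moved the median of all genes at 12 d from -0.037 to -0.156 and the share of higher among called genes from 50.7% to 38.2%, and with age in snap33 from 0 to -0.142 and from 51.4% to 40.9%; 8 of the 10 genes still fell at 12 d. The difference between ages could not be fitted with only the groups compared. Low counts limit IPS1, SPX3 and PAP14, which had at most 6 counts per group at 5 d.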
